A study of Mus musculus with 30 samples.

Results

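The Schlafen and PYHIN genes are 2 families of immune genes, and 10 of them were followed here through fracture healing in lean and diet-induced obese (DIO) mice. The members were Slfn1, Slfn2, Slfn4, Slfn5 and Slfn8 of the Schlafen family and Aim2, Ifi203, Ifi204, Ifi206 and Ifi211 of the PYHIN family, and all 10 were found by their Ensembl identifier among the 43629 genes of the deposited read counts. Slfn4 and Ifi206 entered the list because of their values in earlier results of these data, and the comparison they were picked on is not recorded. Their levels and fold changes are therefore given as a description with no test, and counts of members that passed a test are over the other 8.

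Schlafen proteins restrain cell growth and virus replication in immune cells, and several act on transfer RNAs. The long members carry a helicase-like part that the short ones lack. PYHIN proteins pair a pyrin domain, which docks onto other pyrin domains, with a HIN domain that grips double-stranded DNA, and they serve as sensors of DNA inside the cell. Many genes of both families are switched on by interferons, whose signal runs through STAT and IRF factors to short GA-rich elements in promoters, and both are best known from leukocytes.

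The callus is the repair tissue that bridges a broken bone. All mice were male C57BL/6J of 20 weeks, kept on a lean diet or made obese by a high-fat diet, and all underwent an open osteotomy of the right tibia that was held by an intramedullary nail. The callus, freed of soft tissue, was sequenced as poly(A) RNA, with 1 callus per library and 3 mice per diet and day: d3, d5, d7 and d10 for lean mice, and d3, d5, d7, d10, d14 and d21 for DIO mice. The diets were compared up to d10, and lean mice on later days are not analysed here, so the last 2 days are described for DIO mice alone.

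Libraries held between 13247122 and 26365620 counts, with 16854427 as the median. The lowest count of a member in any library was 5, for Ifi206, and each of the other 9 members had at least 34 counts in every library. All 10 members passed the filter on low counts in each comparison. Chondrocyte and osteoblast markers (8 genes each) had counts in every group, and so did 7 skeletal muscle genes, whose summed level ran from 363 to 24585 CPM, which here are counts scaled to a common library size. The lean d10 library of replicate 1 stood apart from the other lean d10 libraries, with a chondrocyte sum of 76698 CPM against 15107 and 16597 CPM. Its sum over 10 genes of leukocytes in general (Ptprc, which encodes CD45, and others) was 973 CPM against 1408 and 1592 CPM. Calls and described fold changes of members on lean d10 are also given without it.

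The Schlafen members lie together on chromosome 11 and the PYHIN members on chromosome 1 (GRCm38). Slfn5 was placed at chr11:82951349-82964840 on the plus strand, Slfn8 at chr11:83002158-83020810 on the minus strand, Slfn2 at chr11:83065112-83070678, Slfn1 at chr11:83116849-83122670 and Slfn4 at chr11:83175186-83190216, the last 3 on the plus strand. Aim2 was placed at chr1:173350879-173466040 on the plus strand and the other PYHIN members on the minus strand, with Ifi206 at chr1:173468485-173491041, Ifi204 at chr1:173747293-173766943, Ifi211 at chr1:173896345-173913046 and Ifi203 at chr1:173920407-173942672. Neighbours in these clusters resemble each other, which limits how reads can be assigned. The share of the longest transcript that lay in a stretch of 100 bases matching another gene, at 95% identity or more, was 94.1% for Ifi211, 88.4% for Ifi204, 76.5% for Slfn8, 61.2% for Ifi206, 44.4% for Ifi203, 40.7% for Slfn4, 24.8% for Aim2, 22.8% for Slfn2, 14.2% for Slfn5 and 5.9% for Slfn1. Ifi211 shared 74.8% of its transcript with Ifi204, Slfn8 shared 60.6% with Slfn9, and Ifi206 shared 33.1% with Ifi208, so the values of these members are uncertain with respect to their close copies. Slfn5 overlapped the opposite-strand gene Slfn5os over 8.8% of its exon bases, and the strand setting of the counting is not given in the sources used here.

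Promoter windows of 250 bases before to 50 bases after the start site (RefSeq, GRCm38.p6) were at hand for 9 of the 10 members; Ifi204 had none. The core of the interferon-stimulated response element, to which STAT and IRF complexes bind, was searched on both strands as GAAA, any 2 bases and GAAA again. It was found in 5 of these 9 members, in Ifi203, Ifi206, Ifi211, Slfn5 and Slfn8, and in 3.99% of the 27025 genes with a window. The 170 bases before the start site are shown for these 5, because the level of these members is read beside that of interferon response genes throughout. The match is in capitals, and a match on the opposite strand reads TTTC, 2 bases and TTTC. Ifi203 (chr1:173942493-173942662), Ifi206 (chr1:173491319-173491488), Ifi211 (chr1:173913047-173913216) and Slfn8 (chr11:83020811-83020980) are on the minus strand and Slfn5 (chr11:82951932-82952101) on the plus strand, and each is written from 5′ to 3′ on its own strand.
Ifi203: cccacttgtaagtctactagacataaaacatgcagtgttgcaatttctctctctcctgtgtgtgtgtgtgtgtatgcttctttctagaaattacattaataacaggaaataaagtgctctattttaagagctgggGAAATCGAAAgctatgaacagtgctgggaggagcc
Ifi206: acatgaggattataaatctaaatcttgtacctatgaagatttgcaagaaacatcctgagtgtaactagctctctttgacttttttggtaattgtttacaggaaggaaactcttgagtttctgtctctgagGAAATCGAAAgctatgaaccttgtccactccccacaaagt
Ifi211: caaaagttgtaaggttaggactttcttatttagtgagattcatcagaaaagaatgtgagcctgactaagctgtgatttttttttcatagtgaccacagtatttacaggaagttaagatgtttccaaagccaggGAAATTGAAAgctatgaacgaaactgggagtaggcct
Slfn5: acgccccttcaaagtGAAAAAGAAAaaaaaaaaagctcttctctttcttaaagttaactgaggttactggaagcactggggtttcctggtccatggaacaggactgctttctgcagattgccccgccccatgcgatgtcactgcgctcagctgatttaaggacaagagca
Slfn8: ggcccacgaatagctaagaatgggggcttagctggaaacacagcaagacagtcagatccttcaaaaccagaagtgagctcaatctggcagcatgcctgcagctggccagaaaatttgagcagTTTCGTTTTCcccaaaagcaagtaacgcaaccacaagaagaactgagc

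In the PYHIN members the match began at position -35 of Ifi203 (the second of 2 start sites), -40 of Ifi206 and -37 of Ifi211. In all 3 its end overlapped gaaagctatgaac, the longest run of letters that these 3 windows share, at 13 letters. The run stood in 0.0213% of the 32851 windows. It was picked from the 3 windows themselves, so this share is no measure of enrichment. In Slfn8 the match began at -48 from the first of 2 start sites and at -136 from the second, and in Slfn5 it began at -155. A match describes letters and not a bound site.

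The windows of Slfn1, Slfn2, Slfn4 and Aim2 held no such match. The longest run shared by the windows of the 3 short or middle-length Schlafen members was acttcctggag, in capitals here. It was found in 0.0731% of all windows, with both strands searched. This run too was picked from the 3 windows themselves, so the share is no measure of enrichment. The 3 windows are shown because Slfn2, Slfn4 and Slfn1, in that order, had the highest levels of the members for their length. A link between the run and these levels was not tested. All 3 lie on the plus strand, Slfn1 at chr11:83116650-83116819, Slfn2 at chr11:83064942-83065111 and Slfn4 at chr11:83175016-83175185.
Slfn1: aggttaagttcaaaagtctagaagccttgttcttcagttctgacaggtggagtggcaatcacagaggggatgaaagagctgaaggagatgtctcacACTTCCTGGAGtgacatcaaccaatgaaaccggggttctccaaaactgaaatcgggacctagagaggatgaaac
Slfn2: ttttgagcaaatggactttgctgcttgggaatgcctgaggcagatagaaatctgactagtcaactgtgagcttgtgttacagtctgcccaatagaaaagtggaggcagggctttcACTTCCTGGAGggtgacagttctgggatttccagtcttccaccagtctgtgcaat
Slfn4: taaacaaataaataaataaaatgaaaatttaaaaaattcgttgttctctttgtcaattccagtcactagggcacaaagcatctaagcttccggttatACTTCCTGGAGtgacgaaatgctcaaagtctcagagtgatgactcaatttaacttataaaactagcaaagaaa

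The run began at position -74 of Slfn1, -55 of Slfn2 and -73 of Slfn4. The letters TTCNNNGAA, the core bound by STAT dimers, which read the same on both strands and can overlap the element above, were found in no member's window and in 8.3% of all windows.

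Per kilobase of exon, Slfn2 had the highest mean level over the 30 libraries, at 55.8 CPM per kb, followed by Slfn4 (21.5) and Slfn1 (14.1). The PYHIN members were lower, with Ifi204 at 7.97, Aim2 at 5.26, Ifi203 at 2.81, Ifi211 at 2.61 and Ifi206 at 0.72 CPM per kb. The long Schlafen members Slfn8 (3.13) and Slfn5 (2.81) were in the same range as the PYHIN members. The ratio of the highest to the lowest group mean was 9.4 for Slfn4, 7.49 for Ifi206, 5.45 for Slfn1 and 5.19 for Aim2, and 1.99 for Ifi204, the least variable member. When the 10 groups were put in order of mean CPM, neighbours in that order overlapped for all 9 pairs in 7 members. The exceptions were Aim2 (DIO d21 above DIO d14, and lean d3 above lean d7), Slfn2 (DIO d7 above DIO d5) and Slfn4 (DIO d10 above lean d10).

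**Figure D1:**
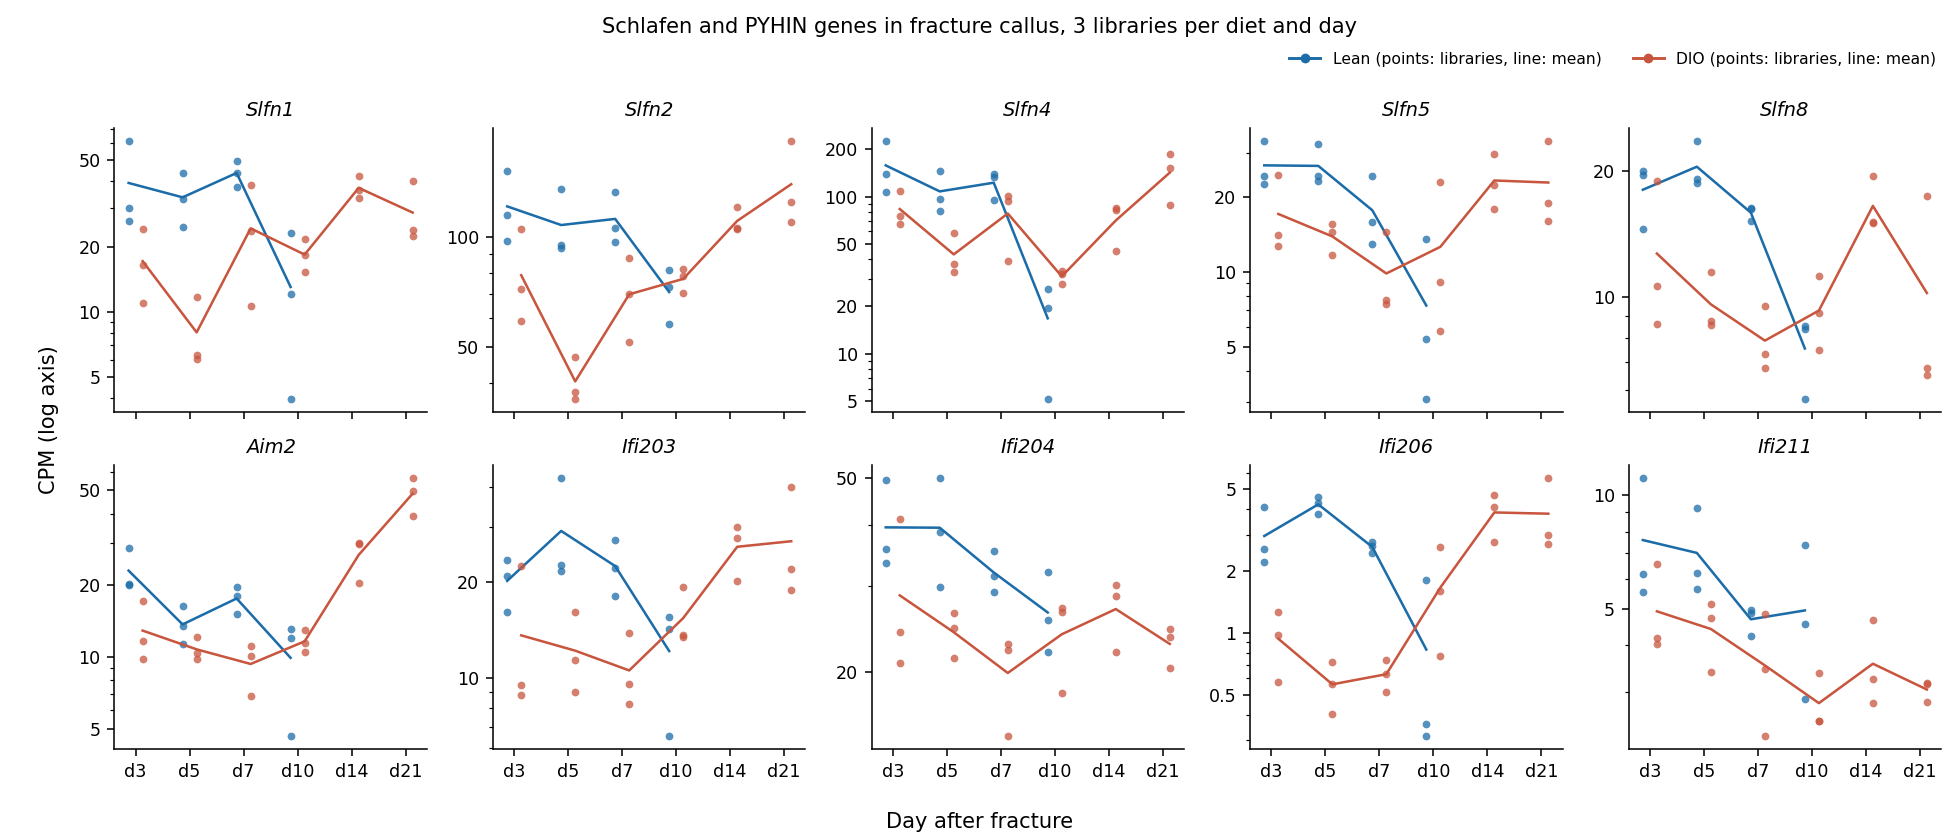
CPM (log axis) of each member by day after fracture; points are libraries, lines join the group means, lean in blue and DIO in red, with 3 libraries per point of the line. Slfn4 ranged from 5.14 to 226 CPM, the lean d10 means of 6 members were the lowest or next to the lowest of their panel, and Aim2 rose to a mean of 48.5 CPM on DIO d21.

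In lean mice, Slfn1, Slfn2, Slfn5, Slfn8 and Aim2 were lower on d10 than on d3, while Ifi203, Ifi204 and Ifi211 did not pass the test. Of the 8 members tested, 5 fell (Slfn1, Slfn2, Slfn5, Slfn8 and Aim2) and none rose, against 14.1% of the 16471 genes tested that were called lower. The median over the 8 members was a log2 fold change of -0.96, and that of all genes was 0.02. The CPM of the 2 days did not overlap for 7 of the 8 members, all lower on d10, a pattern seen in 22.2% of genes.

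Slfn8, a long Schlafen member, had 14.5, 19.6 and 20.0 CPM on lean d3 and 5.7, 8.38 and 8.53 CPM on lean d10. Each d10 library was below each d3 library, and Slfn8 fell by 1.22 on the log2 scale (SE 0.20, edgeR adjusted p = 0.00161, n = 3 per day). Slfn5, another long member, had 24.2, 22.5 and 33.6 CPM on d3 and 3.07, 5.37 and 13.5 CPM on d10. It showed the largest fall of the 8 members, -1.84 on the log2 scale (SE 0.43, edgeR adjusted p = 0.00892), again without overlap. These 2 calls held with each library left out in turn, lean d10 replicate 1 included.

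The short members Slfn1 and Slfn2 and the PYHIN member Aim2 fell too, with calls that were lost without some of the libraries. Slfn1, first described in developing thymocytes, had 26.2, 61.5 and 30.2 CPM on d3 and 3.95, 23 and 12.1 CPM on d10 (log2 fold change -1.55, SE 0.49, edgeR adjusted p = 0.033). The library of 61.5 CPM was the highest of all 30 for Slfn1 and the one of 3.95 CPM the lowest. Without lean d3 replicate 2 the log2 fold change of Slfn1 was -1.09 (edgeR adjusted p = 0.151), without lean d10 replicate 1, which stood apart, it was -1.11 (0.0509), and without lean d10 replicate 3 it was -1.52 (0.0785).

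Slfn2, which keeps T cells and monocytes in a resting state, had 97.7, 151 and 115 CPM on d3 and 73.1, 81.5 and 57.8 CPM on d10 (log2 fold change -0.74, SE 0.20, edgeR adjusted p = 0.0187). It was the smallest of the 5 falls, and the log2 fold change was -0.56 without lean d3 replicate 2 (edgeR adjusted p = 0.0849) and -0.63 without lean d10 replicate 3 (0.0557). Aim2, which binds DNA in the cytosol and assembles an inflammasome with the adaptor Pycard and caspase-1, had 20.1, 28.8 and 20.2 CPM on d3 and 4.64, 13.1 and 12 CPM on d10 (log2 fold change -1.18, SE 0.32, edgeR adjusted p = 0.0167). Without lean d3 replicate 2 the edgeR adjusted p of Aim2 was 0.0704. The calls of Slfn2 and Aim2 held without lean d10 replicate 1.

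Slfn4, an interferon-induced gene of myeloid cells, is described without a test. It had 140, 226 and 107 CPM on lean d3, 80.5, 146 and 96.8 CPM on d5, 95.2, 138 and 134 CPM on d7, and 5.14, 25.7 and 19.6 CPM on d10. The drop came between d7 and d10, with no overlap, at a log2 fold change of -2.85 (SE 0.48), and the d10 to d3 value was -3.19 (SE 0.48). Without lean d10 replicate 1 these values of Slfn4 were -2.41 and -2.75. Ifi206 had 2.2, 2.55 and 4.1 CPM on lean d3 and 0.313, 1.81 and 0.36 CPM on d10, where 2 of the 3 libraries held 5 and 6 counts. Its log2 fold change was -1.80 (SE 0.54), -3.09 without lean d10 replicate 2, the library of 1.81 CPM, and -1.41 without lean d10 replicate 1.

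The steps between the lean days were tested as well. Of the 8 members, none passed the edgeR test between lean d3 and d5 or between d5 and d7, when 0.449% and 0.0% of genes were called. Between d3 and d5, 2430 genes had an unadjusted p under 0.05 and DESeq2 called 582. For d5 against d7 no gene was called by edgeR, 926 had an unadjusted p under 0.05, and DESeq2 called 36. Between d7 and d10, 1 of 8 members fell, against 1.65% of genes called lower. Slfn8 went from 16.2, 16.3 and 15.2 CPM on d7 to the d10 values above (log2 fold change -1.06, SE 0.20, edgeR adjusted p = 0.0286). This call was lost without any single d7 library or without lean d10 replicate 1 (edgeR adjusted p = 0.0665 without the latter). Slfn1, with 37.8, 49.8 and 43.5 CPM on d7, missed the threshold at a log2 fold change of -1.73 (SE 0.49, edgeR adjusted p = 0.0714).

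The leukocyte content of the lean callus differed between these days as well. The summed CPM of the 10 leukocyte genes was 2123 to 3393 on lean d3 and 973 to 1592 on lean d10, and the sum of 12 monocyte and macrophage genes was 4721 to 5926 and 1960 to 3021. No gene of either list was at 0 in a group. Set against the leukocyte sum, a measure chosen after the data were seen, all 8 tested members overlapped between lean d3 and d10. The share of all genes that overlap on this scale was not computed for any comparison. Overlap of 3 libraries per group does not show that the means are equal. In CPM per 1000 leukocyte CPM, the 5 called members had means on d3 and d10 of 14.6 and 9.03 (Slfn1), 47.3 and 55.8 (Slfn2), 11 and 5.36 (Slfn5), 7.18 and 5.73 (Slfn8) and 8.95 and 7.17 (Aim2). The means of Ifi203 (7.97 and 8.91), Ifi204 (16.3 and 21.6) and Ifi211 (3.19 and 4.22) were the larger on d10. On d10 Slfn2 stood at 75.1 in replicate 1, the library that stood apart, and at 51.2 and 41.1 in the others. Of the described members, Ifi206 overlapped and Slfn4 did not, at 59.6 on d3 and 11.8 on d10. In a bulk sample, fewer cells of a type and less RNA per cell cannot be told apart, and the part of the leukocyte content in the fall of the members was not tested.

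The interferon pathway was followed on lists chosen with earlier results of these data known. Of 12 interferon and receptor genes, the 4 receptor chains Ifnar1, Ifnar2, Ifngr1 and Ifngr2 passed the filter, and the 8 interferon genes did not. Ifnb1 had no count in 29 of 30 libraries and Ifng, the interferon of T and NK cells, none in 14. On lean d10 against d3, 23 of 37 interferon response genes were lower and 1 was higher (24 called in all, 15 without lean d3 replicate 2 and 17 without lean d10 replicate 1), with a median log2 fold change of -1.03. Oas2, an antiviral enzyme, went from a mean of 41.7 to 9.55 CPM (edgeR adjusted p = 0.000364). Of 12 kinases and factors of the pathway 8 were lower and 1 higher, among them Irf5, a factor of myeloid cells, from 70.5 to 22.2 CPM (edgeR adjusted p = 0.000176). Of 11 DNA sensing and inflammasome genes 6 were lower, with Nlrp3, another inflammasome sensor, at 9.97 and 1.72 CPM (edgeR adjusted p = 0.00174) and the DNA sensor Cgas at 11.3 and 3.46 CPM (edgeR adjusted p = 0.00214).

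In DIO mice Slfn2 fell between d3 and d5, and Aim2, Slfn2 and Ifi203 were higher on d21 than on d3. Between d3 and d5, 1 of 8 members fell, Slfn2, against 0.282% of genes called lower. It had 105, 72.2 and 58.9 CPM on d3 and 47.2, 37.9 and 36.1 CPM on d5, all lower (log2 fold change -0.96, SE 0.23, edgeR adjusted p = 0.0378). The call was lost without 5 of the 6 libraries in turn, with an edgeR adjusted p of 0.235 without DIO d3 replicate 1.

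Between DIO d5 and d7, d7 and d10, and d3 and d10, none of the 8 members passed the edgeR test, against 0.0177%, 13% and 21.8% of genes called. At an unadjusted p under 0.05 there were 2411, 4537 and 5971 genes, and DESeq2 called 342, 2598 and 4088. Slfn1 was variable on DIO d7, with 23.7, 10.6 and 38.5 CPM after 11.7, 6.33 and 6.09 CPM on d5 (log2 fold change 1.59, SE 0.39, edgeR adjusted p = 0.0891). The leukocyte sum varied in the same libraries, at 1060, 706 and 1684 CPM on DIO d7. Slfn4 had 108, 75.1 and 66.6 CPM on DIO d3, 101, 38.8 and 94.1 CPM on d7, and 32.1, 27.7 and 33.4 CPM on d10. Its d10 libraries were below all d3 and d7 libraries, with log2 fold changes of -1.42 (SE 0.35) against d3 and -1.33 (SE 0.35) against d7.

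From d10 to d21 the DIO calli showed a rise of Aim2 at each step. Aim2 had 13, 10.5 and 11.4 CPM on d10, 30.2, 29.8 and 20.4 CPM on d14, and 56.4, 39.2 and 49.8 CPM on d21. The 3 days did not overlap. Between d10 and d14 it was the 1 member of 8 that passed the test (log2 fold change 1.20, SE 0.23, edgeR adjusted p = 0.0328), against 0.583% of genes called higher. Between d14 and d21 it was again the 1 member called (log2 fold change 0.86, SE 0.23, edgeR adjusted p = 0.0154), against 10.6% of genes called higher. The first call was lost in a fit of all 30 libraries (edgeR adjusted p = 0.0914) and without DIO d10 replicate 2 or 3 or DIO d14 replicate 1 or 2 (0.128 to 0.181). The second was lost without DIO d14 replicate 3 or DIO d21 replicate 1 (0.0811 and 0.078).

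The other 7 tested members did not pass the edgeR test between DIO d10 and d14. The CPM of the days did not overlap for 5 of the 8 members, Aim2 included, all higher on d14, a pattern seen in 14.0% of genes, and it overlapped for Slfn5, Ifi204 and Ifi211. Slfn1 had 18.3, 15.2 and 21.6 CPM on d10 and 33.4, 42.1 and 36.4 CPM on d14 (log2 fold change 1.02, SE 0.38, edgeR adjusted p = 0.179). Slfn8 had 11.2, 9.16 and 7.49 CPM on d10 and 19.4, 15.1 and 15.0 CPM on d14 (log2 fold change 0.83, SE 0.35, edgeR adjusted p = 0.227).

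Across the whole DIO course, d21 against d3, Aim2, Slfn2 and Ifi203 rose, 3 of 8 members against 23.5% of genes called higher, and none fell. Aim2 went from 17.2, 11.7 and 9.81 CPM to the d21 values above, the largest difference of the 8 (log2 fold change 1.91, SE 0.23, edgeR adjusted p = 8.27e-06), and this call held with each library left out. Slfn2 had 183, 110 and 125 CPM on d21 (log2 fold change 0.82, SE 0.23, edgeR adjusted p = 0.00684), all above d3. Without DIO d21 replicate 1, the library of 183 CPM, the edgeR adjusted p of Slfn2 was 0.0659, and without DIO d3 replicate 3 it was 0.0506.

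Ifi203, a PYHIN gene whose role is less well known, had 22.5, 8.82 and 9.51 CPM on DIO d3 and 22.1, 18.9 and 40.0 CPM on d21, with overlap (log2 fold change 0.99, SE 0.35, edgeR adjusted p = 0.0298). Without DIO d21 replicate 3, the library of 40.0 CPM, the log2 fold change was 0.57 (edgeR adjusted p = 0.214). The call was also lost without DIO d3 replicate 2 (edgeR adjusted p = 0.139) or replicate 3 (0.132). Ifi211 ran the other way without passing the test, at 6.55, 4.02 and 4.18 CPM on d3 and 2.82, 3.17 and 3.16 CPM on d21 (log2 fold change -0.68, SE 0.31, edgeR adjusted p = 0.0787). Ifi206 and Slfn4, described only, had log2 fold changes of 2.03 (SE 0.45) and 0.77 (SE 0.34), with Ifi206 at 1.26, 0.574 and 0.969 CPM on d3 and 2.71, 3.0 and 5.65 CPM on d21.

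**Figure D2:**
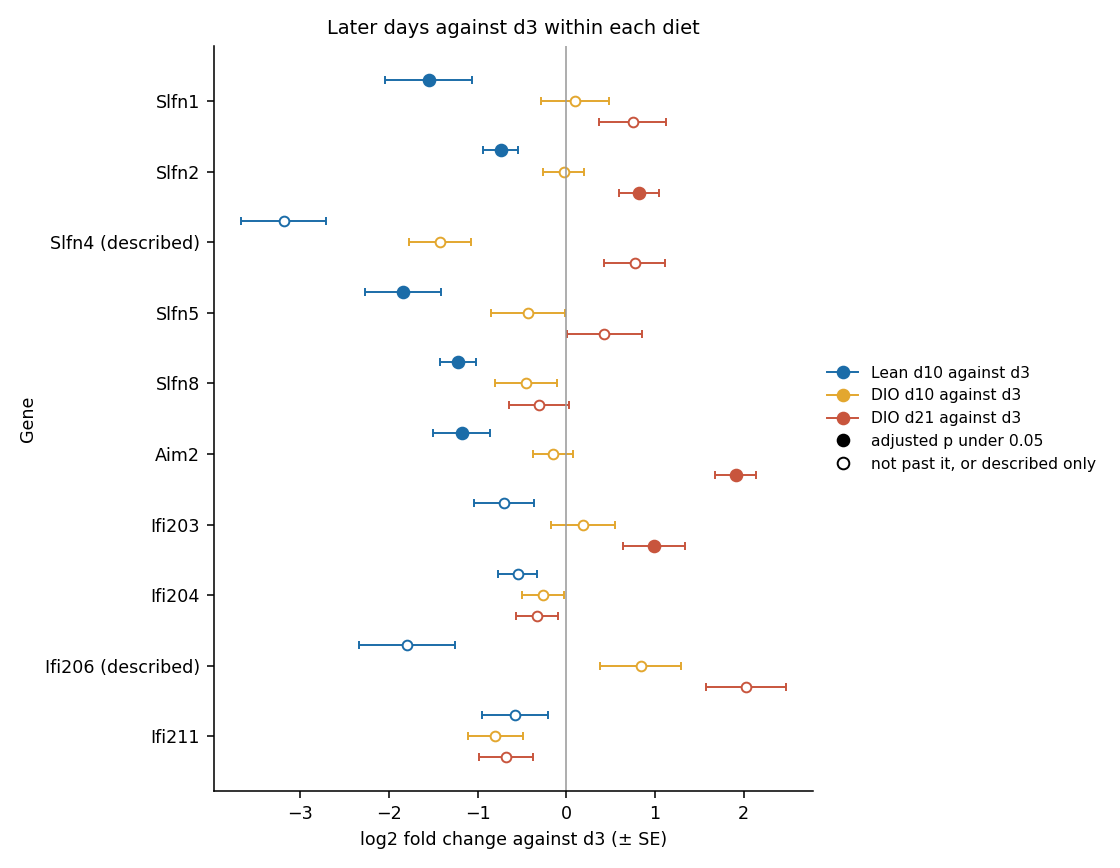
log2 fold change of each member (± SE) on lean d10, DIO d10 and DIO d21, each against d3 of the same diet; filled points have an edgeR adjusted p under 0.05, and Slfn4 and Ifi206 carry no test. On lean d10 all 10 points lie below 0, and on DIO d21 Aim2 lies at 1.91 while Ifi204, Ifi211 and Slfn8 lie below 0.

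The summed markers of leukocytes in general, of neutrophils and of B cells were also higher on DIO d21. Those of monocytes and macrophages and of T and NK cells are not given here for these days. The leukocyte sum was 1006 to 1726 CPM on DIO d3 and 2646 to 3423 CPM on d21, the neutrophil sum (12 genes) 2507 to 4312 and 14530 to 30963 CPM, and the B cell sum (8 genes) 90.6 to 127 and 1318 to 1834 CPM. Relative to the leukocyte sum, Aim2 remained higher without overlap, at 14.8 to 17.4 CPM per 1000 leukocyte CPM on d21 and 8.07 to 9.99 on d3. Slfn2 overlapped, with means of 46.1 and 56.4, and so did Ifi203, at 9.17 and 9.51. Ifi204 (7.7 and 20.7), Ifi211 (1.04 and 3.57) and Slfn8 (3.5 and 8.92) were lower without overlap on this relative scale. Whether the proportions of leukocyte types account for these differences was not tested.

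Of 37 interferon response genes, 14 were higher and 3 lower on DIO d21 than on d3, with a median log2 fold change of 0.49 against 0.03 over all genes. The antiviral gene Rsad2 went from a mean of 9.53 to 190 CPM (edgeR adjusted p = 2.76e-06) and the exonuclease gene Isg20 from 16.3 to 219 CPM (edgeR adjusted p = 9.79e-07). Of 12 factors 5 were higher, among them Irf9, a DNA-binding factor of the interferon pathway, at 44.5 and 80.2 CPM (edgeR adjusted p = 0.000218). Of 11 DNA sensing and inflammasome genes 3 were higher and 2 lower, with a median log2 fold change of -0.11, against 23.5% of all genes called higher. Casp1, the protease that Aim2 inflammasomes activate, went from 13.3 to 25.7 CPM (edgeR adjusted p = 0.00148), and Tmem173, which encodes STING, went from 74.7 to 37.8 CPM (edgeR adjusted p = 2.61e-05).

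The comparison of diets within a day asked whether these families were engaged differently in the obese callus. On d5, 3 of 8 members were lower in DIO than in lean mice (Slfn1, Slfn2 and Slfn8) and none was higher, against 0.948% of 15722 genes called lower. All 8 had a negative log2 fold change, from -2.06 to -0.34, with a median of -1.02 against 0.01 over all genes. The CPM of the diets did not overlap for 7 of the 8, all lower in DIO mice, a pattern seen in 12.3% of genes. The exception was Aim2, at 13.5, 16.3 and 11.3 CPM in lean and 12.1, 9.8 and 10.4 CPM in DIO mice (log2 fold change -0.34, SE 0.18, edgeR adjusted p = 0.366).

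Slfn1 had 24.5, 43.6 and 33.1 CPM in lean and 11.7, 6.33 and 6.09 CPM in DIO mice on d5. The lowest lean library was above the highest DIO library, and the log2 fold change was -2.06 (SE 0.31, edgeR adjusted p = 0.04), the largest of the 8. Slfn2 had 93.2, 135 and 95.3 CPM in lean and 47.2, 37.9 and 36.1 CPM in DIO mice (log2 fold change -1.41, SE 0.18, edgeR adjusted p = 0.0297). Slfn8 had 23.6, 19.1 and 18.7 CPM in lean and 8.75, 11.5 and 8.57 CPM in DIO mice (log2 fold change -1.09, SE 0.18, edgeR adjusted p = 0.0432).

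These 3 calls were close to the threshold, and all were lost without any 1 of the 3 DIO d5 libraries or without lean d5 replicate 2, with edgeR adjusted p from 0.0771 to 0.213. Without lean d5 replicate 1 the call of Slfn8 was lost too (0.0592). With the replicate number as a block, the edgeR adjusted p was 0.219 for Slfn1, 0.203 for Slfn2 and 0.219 for Slfn8, and no gene at all was called.

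None of the 4 tested PYHIN members passed the edgeR test on d5, and Aim2 overlapped between the diets. Ifi203 had 42.8, 22.7 and 21.8 CPM in lean and 9.02, 16.1 and 11.4 CPM in DIO mice (log2 fold change -1.26, SE 0.31, edgeR adjusted p = 0.099). Ifi204, a sensor of DNA that feeds the STING pathway, had 50.1, 38.7 and 29.9 CPM in lean and 21.3, 26.4 and 24.6 CPM in DIO mice (log2 fold change -0.71, SE 0.19, edgeR adjusted p = 0.114). Ifi211 had 9.24, 5.62 and 6.21 CPM in lean and 3.39, 4.72 and 5.13 CPM in DIO mice (log2 fold change -0.67, SE 0.27, edgeR adjusted p = 0.247).

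Ifi206, described without a test, had 4.29, 3.77 and 4.55 CPM in lean and 0.402, 0.717 and 0.564 CPM in DIO mice on d5, which is 63 to 96 counts against 9 to 12. Its log2 fold change was -2.91 (SE 0.33), and on d7 it was -2.03 (SE 0.41), with 2.75, 2.45 and 2.63 CPM in lean and 0.63, 0.515 and 0.74 CPM in DIO mice. Slfn4 had 58.6, 33.0 and 37.0 CPM in DIO mice on d5, all below the lean values given above (log2 fold change -1.33, SE 0.28).

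**Figure D3:**
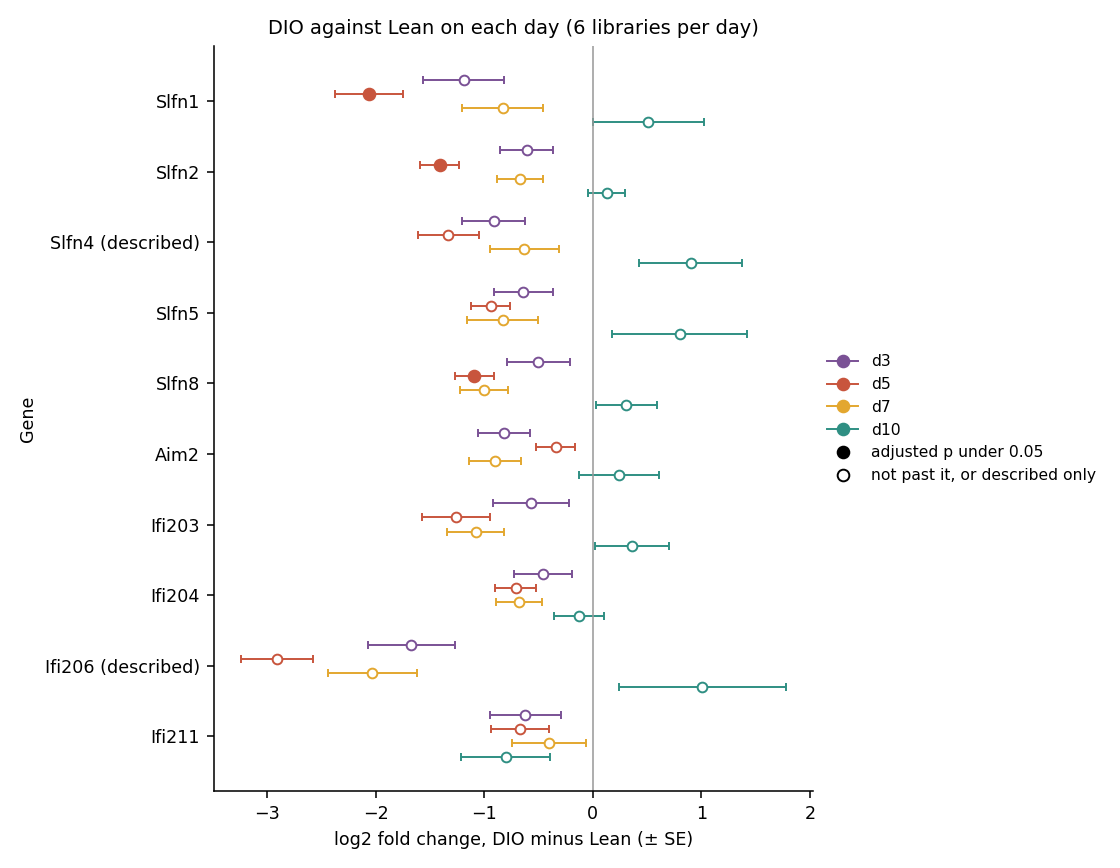
log2 fold change of DIO against lean mice (± SE) for each member on d3, d5, d7 and d10, from a fit of the 6 libraries of each day; filled points have an edgeR adjusted p under 0.05, and Slfn4 and Ifi206 carry no test. On d3, d5 and d7 the points of all 10 members lie below 0, with Slfn1, Slfn2 and Slfn8 filled on d5, and on d10 only Ifi204 and Ifi211 do.

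Leukocyte markers differed between the diets on the same day. On d5 the leukocyte sum was 1572 to 2520 CPM in lean and 888 to 1046 CPM in DIO mice, the monocyte and macrophage sum 3989 to 5535 and 2425 to 2703 CPM, and the sum of 10 T and NK cell genes 42.1 to 61.6 and 14.6 to 17.2 CPM. Per 1000 leukocyte CPM, Slfn1 was still lower in DIO mice without overlap (6.73 to 11.1 against 15.6 to 19.2), as were Slfn2 (39.9 to 45.2 against 53.7 to 59.3) and Ifi206 (means of 0.605 and 2.29). The other members apart from Aim2 overlapped. Their means in DIO and lean mice were 10.3 and 11.2 (Slfn8), 44.7 and 55.1 (Slfn4), 14.9 and 14.7 (Slfn5), 13.1 and 16.3 (Ifi203), 25.8 and 21.5 (Ifi204) and 4.74 and 3.9 (Ifi211). Aim2 was higher in DIO mice without overlap, at 11 to 11.5 against 6.45 to 8.57. The part of leukocyte numbers in the diet difference was not tested.

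**Figure D4:**
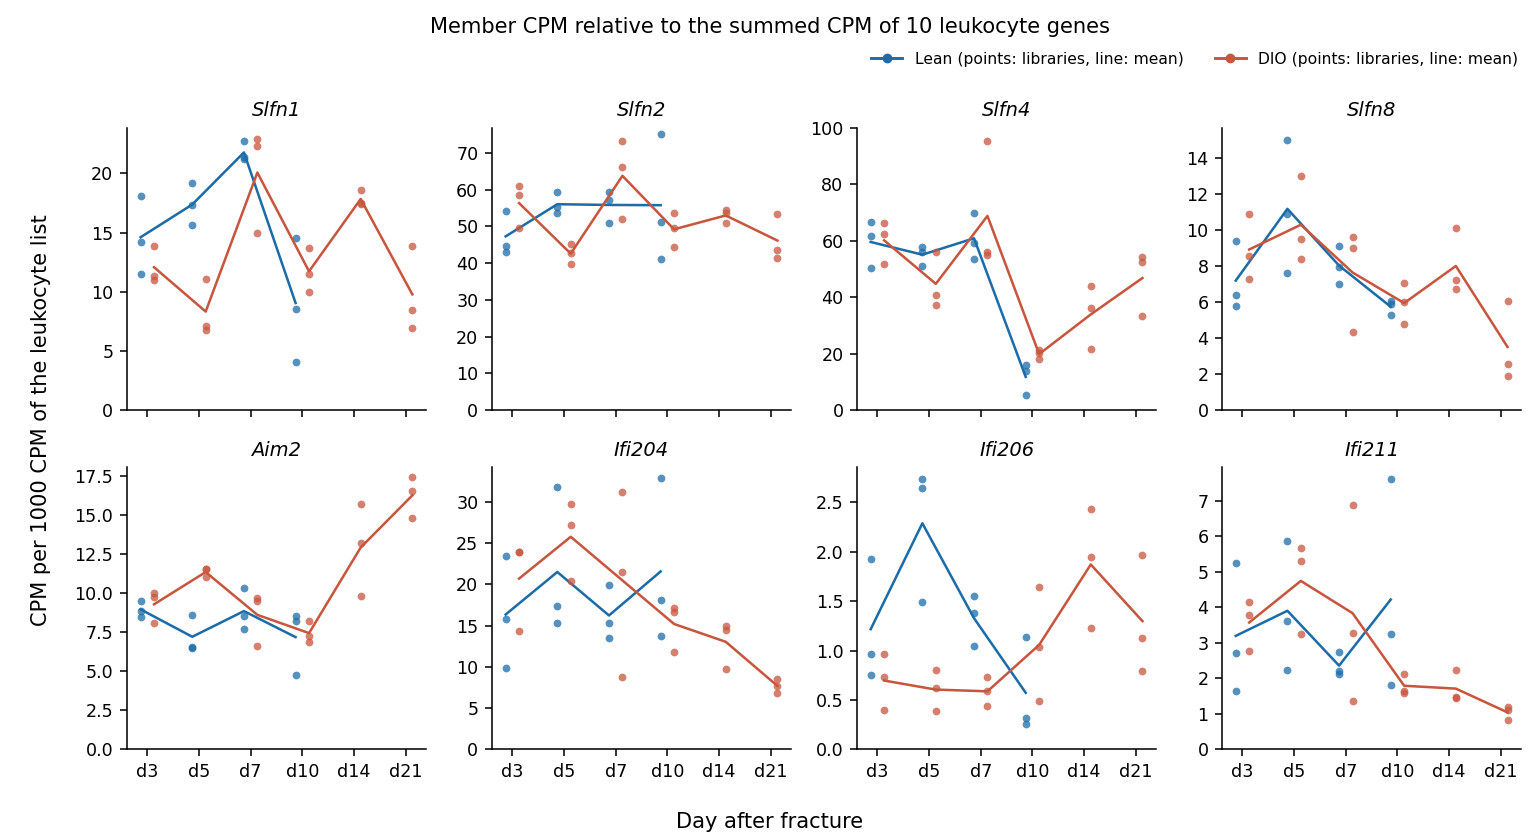
CPM of 8 members per 1000 CPM of the summed leukocyte list, by day after fracture; points are libraries, lines join group means, lean in blue and DIO in red. Slfn2 stayed between means of 42.6 and 63.8 in all groups, Slfn4 was lowest on d10 in both diets, Aim2 was highest on DIO d21, and Ifi204 and Ifi211 were lowest there.

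Interferon response genes were lower in DIO mice on d5 together with the members. The median over all 37 was a log2 fold change of -1.32, against 0.01 over all genes. Of the 37, 21 were called lower and none higher, against 0.948% of all genes called lower. This count was 0 without any 1 of the DIO d5 libraries, without lean d5 replicate 2 or with the replicate block, 12 without lean d5 replicate 1, 13 in a fit of all 30 libraries and 33 by DESeq2. Mx2, an antiviral GTPase, had means of 9.14 CPM in lean and 2.08 CPM in DIO mice (edgeR adjusted p = 0.0296). Of the 12 factors 7 were lower, among them Irf9 (62.5 and 34.1 CPM, edgeR adjusted p = 0.0297). The 4 receptor chains had a median log2 fold change of -0.38.

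On d3 and d7 none of the 8 members passed the edgeR test between the diets, against 0.0% of genes called on d3 and 2.32% on d7. On d3 no gene was called by edgeR at all, 2374 had an unadjusted p under 0.05, and DESeq2 called 736. On d7 these counts were 2614 and 934. All 8 members had a negative log2 fold change on both days, with medians of -0.61 and -0.83. On d3 the CPM overlapped between the diets for 6 of 8 and was lower without overlap in DIO mice for 2, as in 12% of genes. On d7 it did not overlap for 5 of 8, all lower in DIO mice, as in 11.9% of genes. Slfn8 came closest, with 9.51, 6.77 and 7.33 CPM in DIO mice against 16.2, 16.3 and 15.2 CPM in lean mice (log2 fold change -1.0, SE 0.22, edgeR adjusted p = 0.0502).

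On d10 the log2 fold changes of the 8 members were not all negative. None of the 8 members was called by edgeR on d10, and neither was any gene (0.0%), while 1082 had an unadjusted p under 0.05 and DESeq2 called 56. Of the 8 members 6 had a positive log2 fold change, with a median of 0.28, and the CPM of all 8 overlapped between the diets, while 6.86% of genes were higher and 7.31% lower in DIO mice without overlap. Slfn4, described only, was higher in DIO mice without overlap (27.7 to 33.4 CPM against 5.14 to 25.7 CPM), at a log2 fold change of 0.90 (SE 0.47), or 0.46 without lean d10 replicate 1. None of the 8 members was called without that library either.

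Whether the diet difference itself changed from d7 to d10 was asked in a joint model of both diets, with the 24 libraries up to d10. Slfn8 passed, 1 of 8 members, against 1.7% of genes called in that direction: its difference between DIO and lean mice rose by 1.32 on the log2 scale (SE 0.36, edgeR adjusted p = 0.0358). The call was lost without lean d10 replicate 1 (edgeR adjusted p = 0.12) and without any of 5 other libraries (0.0605 to 0.102). The median of the 8 members was 1.23 against 0.02 over all genes, and 11 of 37 interferon response genes were called, all in the same direction (3 to 17 with 1 library left out). In a test over all 4 days together, 0 of 8 members were called against 1.65% of genes, where 3137 genes had an unadjusted p under 0.05 and DESeq2 called 1107. Slfn2 had the lowest edgeR adjusted p there, 0.0553.

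The genes of both families outside the member list were counted as well. Of 5 other counted Schlafen genes, 4 were tested in the day comparisons, and of 8 other PYHIN genes 7 or 8. Slfn9, a close copy of Slfn8, had a mean of 12 CPM on lean d3 and 3.54 CPM on d10 (edgeR adjusted p = 0.0084). Slfn14, known for clearing ribosomes in maturing red cells, went from 1.64 CPM on DIO d3 to 45.7 CPM on d21 (edgeR adjusted p = 0.000327), while the sum of 7 erythroid genes went from 708 to 780 CPM to 25345 to 36237 CPM. On the same days Slfn9 went from 12.9 to 4.89 CPM (edgeR adjusted p = 0.0181). Slfn3, a close relative of Slfn4, was also higher on DIO d21 than on d3, at 4.41 and 1.23 CPM (edgeR adjusted p = 0.00317).

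Of the other PYHIN genes, 5 of 8 were higher and 1 lower on DIO d21 than on d3, against 23.5% of all genes called higher. Mndal went from a mean of 14.8 to 48.8 CPM (edgeR adjusted p = 2.14e-05) and Ifi209 from 10.4 to 38.2 CPM (edgeR adjusted p = 0.000878). Between the diets on d7, 3 of 6 were lower in DIO mice, against 2.32% of all genes called in either direction. Ifi213 had means of 7.04 CPM in lean and 1.32 CPM in DIO mice (edgeR adjusted p = 0.0197), and Ifi209 of 13.6 and 5.05 CPM (edgeR adjusted p = 0.0256). The count on d7 was 0 without lean d7 replicate 1 or 2, and 1 without lean d7 replicate 3 or DIO d7 replicate 2. On lean d10 against d3, 3 of 7 were lower and 1 was higher, against 14.1% of all genes called lower. Ifi207 was among the lower ones, at 12.6 and 30.6 CPM (edgeR adjusted p = 0.0015).

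Across the 30 libraries, which share their diet and day groups, the members followed different sets of genes, as measured by Pearson's r of log2 CPM with each gene outside both families and given as a description. Slfn4 was most like Cd300lf (0.97) and Sema4a (0.95), and Slfn1 was most like Trpm2 (0.93). Slfn8 was most like Oasl2 (0.92) and Ddx58 (0.88), which encodes the RNA sensor RIG-I, Ifi203 like Parp9 (0.92), and Slfn5 like Zeb2 and Gbp7 (0.92 each). Ifi206 was most like the immunoproteasome genes Psmb8 (0.90) and Psmb9 (0.89). Aim2 was most like Tifa and Dazap2 (0.96 each). Ifi204 and Ifi211 had less close partners, Oas1g at 0.78 and Cxcl10 at 0.80. With Spearman's correlation, 5 of the 10 members kept 1 of their 3 closest genes. The closest gene was then Csf3r for Slfn1 (0.92), Ifi47 for Ifi206 (0.89) and Ms4a7 for Ifi211 (0.81), and it remained Cd300lf for Slfn4, Oasl2 for Slfn8 and Oas1g for Ifi204.

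Among the members themselves, r over the 30 libraries was highest for Ifi203 with Ifi206 (0.84) and Ifi204 with Ifi211 (0.83), the latter a pair that shares most of its transcript. With the group means removed, Slfn4 and Aim2 had an r of 0.94 and Slfn1 and Slfn4 of 0.86, so mice of 1 diet and day that were high in one were high in the other. Ifi211 ran against Slfn4 (-0.71) and Slfn1 (-0.63) within groups. These values rest on 3 libraries per group and on whole-tissue RNA, in which the libraries also differ in leukocyte content.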

How the data were processed

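RNA of 30 fracture calli was measured, 3 mice in each of 10 groups of diet and day. Per the labels and the study's methods, the authors sequenced stranded poly(A) libraries, aligned the reads to GRCm38 with HISAT2 2.1.0 and counted them per gene with HTSeq; the deposited values are raw counts per gene, with no normalization. The HTSeq version, annotation and strand setting are not given in the sources used here. Reads shared by near-identical genes may be lost or misplaced by such counting.

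Samples were grouped by their labels. Counts were fitted with edgeR 4.0.16 (R 4.3.3; TMM factors, filterByExpr by group, quasi-likelihood F-test, two-sided), with Benjamini-Hochberg adjustment over all genes tested and a threshold of 0.05. The SE of a log2 fold change was derived from that test, as the absolute log2 fold change divided by the square root of F. Days were compared in 1 fit per diet (12 lean, 18 DIO libraries), diets in a fit of the 6 libraries of each day, and changes of the diet difference in a fit of 24 libraries. CPM were computed over all 30 libraries from counts of genes that pass the filter, with library totals scaled by TMM factors. DESeq2 1.42.0, RLE factors, no filter, all 30 libraries, a replicate block and leaving out each library were tried as alternatives. The fits were tested on simulated data. The promoter search also included an NF-kB site, found in no member's window and in 0.155% of all windows. Shared transcript sequence was searched with BLAST 2.17.0 on GENCODE M21. Pearson's r used log2 CPM with a prior count of 2.

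Libraries of 1 group differed beyond counting noise (chi-square per degree of freedom 12.78 to 148.1 over 30 pairs), so none was a duplicate. The mice of a group are labelled as biological repeats. Same-numbered libraries deviated together (r from 0.204 to 0.277) for lean d5 against d7 and met the rule for pairing in no other comparison; no member was called there with or without the block.

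The members and lists were chosen with earlier results of these data known. All 10 members were named, other family genes where their mean was at least 1 CPM, and from each pathway list at most 3 genes per comparison, those with the smallest adjusted p. Values of a few genes that this rule names are not reported here.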

Additional observations from a re-analysis of the deposited data

Results flagged for a closer look

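The difference between DIO and lean mice in Slfn8 changed from d7 to d10 by 1.32 on the log2 scale (SE 0.36, edgeR quasi-likelihood test, adjusted p = 0.0358, 3 mice per group), a test of the difference between days itself. The call was lost without any of 6 libraries in turn, lean d10 replicate 1 among them (adjusted p from 0.0605 to 0.12), and in a fit of all 30 libraries (0.0762). On d7 Slfn8 had 16.2, 16.3 and 15.2 CPM in lean and 9.51, 6.77 and 7.33 CPM in DIO mice, and on d10 it had 5.7, 8.38 and 8.53 CPM in lean and 11.2, 9.16 and 7.49 CPM in DIO mice. All 3 DIO libraries were below the lean libraries on d7, and the diets overlapped on d10. Slfn8 shares 60.6% of its transcript with Slfn9, and the leukocyte sum was 1779 to 2331 CPM in lean and 706 to 1684 CPM in DIO mice on d7, and 973 to 1592 and 1528 to 1589 CPM on d10. The part of either in the change was not tested.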

How the results depend on the processing

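Of the 16 calls of a member, 16 were kept with RLE factors, with DESeq2 and with no filter, 12 with all 30 libraries, 13 with the replicate block and 3 with every library left out in turn; 0 reversed. The number of the 8 members called went from 1 to 3 by DESeq2, 2 with no filter, 2 with all 30 libraries and 4 with the replicate block for lean d10 against d7. It went from 0 to 1 by DESeq2 and 1 with no filter for DIO d7 against d5, and from 1 to 0 with all 30 libraries for DIO d14 against d10. Between the diets it went from 0 to 2 by DESeq2 on d3; from 3 to 6 by DESeq2, 5 with no filter, 1 with all 30 libraries and 0 with the replicate block on d5; and from 0 to 1 with RLE factors, 3 by DESeq2 and 2 with no filter on d7. For the change of the diet difference from d7 to d10 it went from 1 to 0 with all 30 libraries, and for the test over 4 days from 0 to 3 by DESeq2 and 1 with no filter. The cause of these shifts was not tested.

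With 1 library left out, the number of members called ranged from 0 to 2 for lean d10 against d7, 2 to 5 for lean d10 against d3, 0 to 1 for DIO d5 against d3, 0 to 2 for DIO d7 against d5, 0 to 1 for DIO d10 against d3, 0 to 1 for DIO d14 against d10, 0 to 2 for DIO d21 against d14 and 1 to 3 for DIO d21 against d3. It ranged from 0 to 6 between the diets on d5, 0 to 2 on d7, 0 to 2 for the change from d7 to d10 and 0 to 2 over 4 days. The described fold changes of Ifi206 moved most without lean d10 replicate 2, to -2.92 for lean d10 against d7 and -3.09 against d3.

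Ifi206 had 5 to 109 counts per library. The smallest detectable difference with 3 mice per group was not measured. The replicate numbers are not labelled as litters or batches, so the block serves as an alternative only.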
